A study of Mus musculus with 74 samples.

Results

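The glutathione transferases (Gst), UDP-glucuronosyltransferases (Ugt) and cytosolic sulfotransferases (Sult) were taken as every gene with a probe set of a single gene symbol whose symbol names an alpha, mu, omega, pi or theta glutathione transferase, a Ugt of family 1 to 3, or a Sult. Of 18193 genes measured, 41 were members. These were 18 glutathione, 10 glucuronide and 13 sulfate transferases. Each gene was read by its brightest probe set, and 9 of the 41 had more than 1. Another 5 probe sets named several genes of these families and were not used, so that Gsta1, Ugt2a1, Ugt2a2 and the Ugt1a genes they name have no value here. Gstp2 and Sult2a1 were not analysed here, since no probe set of a single symbol carried their names.

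RNA was measured on 74 arrays from male B6C3F1 mice in 16 groups, after 15 or 29 days of treatment, in a study of how compounds that cause hemangiosarcoma act. Fenretinide, a synthetic retinoid, was given in the diet at 500 mg/kg, and white adipose tissue was taken from 3 vehicle and 3 treated mice on day 15 and from 4 of each on day 29. Troglitazone, which activates PPARγ, was given orally at 1200 mg/kg, and brown adipose tissue and liver were each taken from 5 vehicle and 5 treated mice on each day. Elmiron (pentosan polysulfate), a sulfated polysaccharide drug, was given orally at 1000 mg/kg, and liver was taken from 5 vehicle and 5 treated mice on each day. White fat came from the fenretinide study only, so that tissue and study cannot be told apart when it is set beside the others. Levels below are log2 of the array intensity, and differences are in log2 units, so that 1 unit is a doubling.

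These enzymes carry out the conjugating step of drug and hormone breakdown. Glutathione transferases join glutathione to reactive electrophiles in the cytosol, glucuronosyltransferases of the endoplasmic reticulum add glucuronic acid to bilirubin, steroids, bile acids and drugs, and sulfotransferases move a sulfate group from the donor PAPS to phenols, catecholamines, steroids and bile acids. Liver is their main site, where the nuclear receptors CAR and PXR and the oxidative stress factor NRF2 are known to raise many of them. HNF1, a homeodomain factor of liver, kidney and gut, is known to act on Ugt promoters.

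The 7 Ugt2b members lie together on chromosome 5 and include genes with the largest measured differences between brown fat and liver, so their start regions are shown. RefSeq promoters were matched for 36 of the 41 members. The lines give the 100 bases before each start in GRCm38.p6, 5′ to 3′ on the gene's strand, and the capitals mark matches to the HNF1 palindrome with its middle open, that is GTTA, any 4 letters and TTAAC.
Ugt2b1 (chr5:86926504-86926603, minus strand): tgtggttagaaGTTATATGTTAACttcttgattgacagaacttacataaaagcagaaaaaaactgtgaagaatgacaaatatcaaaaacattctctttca
Ugt2b34 (chr5:86906938-86907037, minus strand): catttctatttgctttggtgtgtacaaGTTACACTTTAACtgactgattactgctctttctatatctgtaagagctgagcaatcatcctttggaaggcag
Ugt2b35 (chr5:87000760-87000859, plus strand): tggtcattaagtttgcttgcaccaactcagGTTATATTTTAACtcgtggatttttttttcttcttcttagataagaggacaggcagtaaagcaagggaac
Ugt2b36 (chr5:87092556-87092655, minus strand): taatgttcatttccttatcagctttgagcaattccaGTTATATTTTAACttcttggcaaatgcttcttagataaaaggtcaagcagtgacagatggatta
Ugt2b5 (chr5:87140341-87140440, minus strand): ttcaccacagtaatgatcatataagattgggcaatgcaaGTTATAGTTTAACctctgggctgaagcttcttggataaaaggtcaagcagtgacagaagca
Ugt2b37 (chr5:87254789-87254888, minus strand): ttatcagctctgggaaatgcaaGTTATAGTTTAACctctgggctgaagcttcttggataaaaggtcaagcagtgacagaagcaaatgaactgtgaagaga
Ugt2b38 (chr5:87424204-87424303, minus strand): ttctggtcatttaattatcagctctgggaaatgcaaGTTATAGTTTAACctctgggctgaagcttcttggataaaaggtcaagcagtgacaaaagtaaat
The palindrome, searched on both strands over the 250 bases before the start, was in all 7 of these and in Ugt3a1. That is 8 of 36 members, or 8 of 46 member promoters, against 0.17% of 32851 promoters of that length. The letters of the palindrome were chosen after the sequences were seen, and the members share ancestry and so are not independent. The strict form, GTTAAT, 1 open letter and ATTAAC, was in 0 members and in 0.00913% of all promoters. Ugt2b5, Ugt2b37 and Ugt2b38 shared a run of 62 bases that holds the palindrome. The core of the antioxidant response element, TGACNNNGC, was in Gsta3, Gstm5 and Gstm7, or 3 of 46 member promoters, and in 10.2% of all promoters. A match is a description of these letters and not of binding.

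Some fat libraries stood apart. The mean log2 level of hepatocyte markers was 14.59 to 14.73 in the 40 livers, but in fat it reached 12.47 in the brown fat library of vehicle mouse 82 (day 29), 11.97 in white fat of fenretinide mouse 95, 10.83 in white fat of vehicle mouse 86, 9.69 in white fat of fenretinide mouse 93 (all day 29) and 8.82 in brown fat of vehicle mouse 42 (day 15). In the other 29 fat libraries it was 6.25 to 8.44. Brown adipocyte markers averaged 12.75 to 13.31 in 18 brown fat libraries, but 7.97 in vehicle mouse 82 and 8.84 in troglitazone mouse 95 (day 29), inside the range of 7.31 to 12.23 seen in white fat. White and general adipocyte markers averaged 13.03 to 14.05 in white fat, 12.05 to 13.86 in brown fat and 6.58 to 7.47 in liver. For results that rest on these libraries, values without them are given as well. Skeletal muscle markers averaged 6.30 to 13.43 in brown fat (median 11.76), 6.23 to 10.86 in white fat (median 6.46) and 6.09 to 6.57 in liver. Muscle signal was thus common and variable in brown fat, and its part in the brown fat differences was not tested.

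In vehicle mice, most members were higher in liver than in fat. Between brown fat and liver of the 10 vehicle mice of each tissue in the troglitazone study, 34 of 41 members were lower in brown fat and 2, Gstm5 and Gsto2, were higher. Over all 18193 genes, 44.5% were called lower and 31.6% higher, or 76.1% in either direction, against 87.8% of the members. The median difference was -2.39 over the members and -0.125 over all genes. In bulk tissue, fewer cells of a type and less RNA per cell cannot be told apart. Calls are adjusted p-values below 0.05 over all genes, from limma on each comparison.

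**Figure D1:**
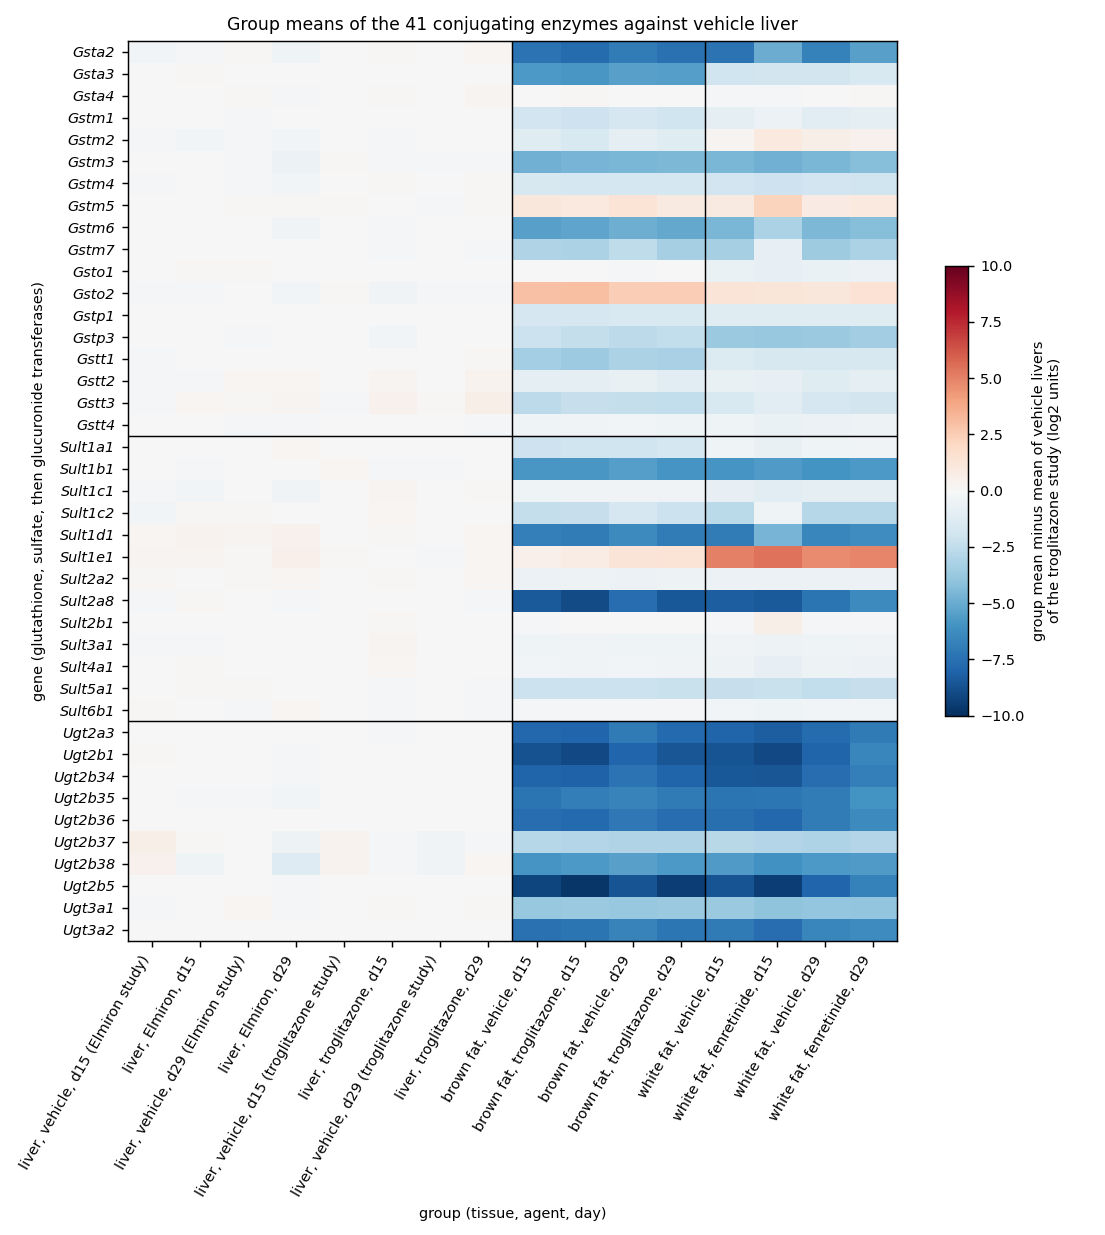
Mean log2 level of each of the 41 members in the 16 groups, drawn as the difference from that gene's mean in the vehicle livers of the troglitazone study, with the members ordered by family. The 8 fat groups (right) lie below the livers for the Ugt2b genes, Sult2a8 and Gsta2, while Sult1e1 is highest in white fat and Gsto2 in brown fat.

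All 10 glucuronosyltransferases were called lower in brown fat. Ugt2b5, an enzyme of steroid and drug glucuronidation, ran from 13.93 to 14.10 in liver (median 14.03, n = 10) and from 3.88 to 10.44 in brown fat (median 4.38, n = 10). The groups did not overlap, and the highest brown fat value was that of mouse 82. The difference was -8.93 ± 0.48 (SE; adjusted p = 9.03e-19), or -9.56 without mouse 82 and troglitazone mouse 95. No detection calls were used, and 22 of 41 members, Ugt2b5 among them, had a brown fat median below the lowest array median of 6.804. Their brown fat levels were not shown to be above background, so the size and the order of their differences are not exact and may be too small. In liver the same held for 9 members, Gsto2 among them. Ugt2b1 ran from 13.60 to 13.88 in liver (median 13.73) and from 4.30 to 9.83 in brown fat (median 4.73), a difference of -8.34 ± 0.38 (adjusted p = 5.12e-21), or -8.84 without the same pair. Ugt2b34 differed by -7.69 ± 0.28 and Ugt2a3 by -7.49 ± 0.25. Ugt2b36, Ugt3a2 and Ugt2b35 differed by -7.37, -7.08 and -6.99, Ugt2b38 by -5.65, Ugt3a1 by -3.82 and Ugt2b37 by -2.92. The Ugt3a enzymes are known to use sugars other than glucuronic acid.

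Of the sulfotransferases, 10 of 13 were called lower in brown fat and none higher, while Sult1e1, Sult2b1 and Sult6b1 were not called. Sult2a8, of the family that sulfates hydroxysteroids and bile acids, ran from 13.74 to 13.94 in liver (median 13.86) and from 4.76 to 10.54 in brown fat (median 5.17). The ranges did not overlap, and the difference was -7.99 ± 0.41 (adjusted p = 2.14e-19), or -8.53 without the pair. Sult1d1, which sulfates catecholamines, differed by -6.61 ± 0.26, and Sult1b1, which acts on thyroid hormones, by -5.67 ± 0.14. Sult5a1, Sult1c2 and Sult1a1, the phenol sulfotransferase, differed by -2.16, -2.04 and -2.02. Sult2a2, Sult3a1, Sult1c1 and Sult4a1, a brain form, were called with small differences, by -0.56, -0.43, -0.36 and -0.26. Their medians lay below the lowest array median of 6.804 in both tissues. Neither tissue was thus shown to be above background for them, although they count among the members called lower.

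The glutathione transferases were the least alike, with 14 of 18 lower in brown fat, 2 higher and 2, Gsta4 and Gsto1, not called. Gsta2, an alpha class enzyme of liver, ran from 11.57 to 11.97 in liver (median 11.88) and from 3.99 to 6.95 in brown fat (median 4.50), a difference of -7.18 ± 0.21 (adjusted p = 7.49e-27). Gsta3, of the same class, differed by -5.55 ± 0.43, or by -6.02 without the pair. Gsta4, which removes the lipid peroxidation product 4-hydroxynonenal, had medians of 11.95 in liver and 11.88 in brown fat and differed by -0.04 ± 0.06 (adjusted p = 0.535). Members of 1 class thus lay on both sides of the threshold.

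All 7 mu class members were called, in both directions. Gstm6, Gstm3 and Gstm7 differed by -5.14 ± 0.19, -4.68 ± 0.09 and -2.79 ± 0.18, and Gstm1, Gstm4 and Gstm2 by -1.78, -1.66 and -1.08. Gstm5 ran the other way, from 9.89 to 10.78 in liver and from 11.42 to 13.03 in brown fat, a difference of 1.24 ± 0.13 (adjusted p = 9.65e-11). Gsto2, an omega class enzyme with dehydroascorbate reductase activity, ran from 5.50 to 6.12 in liver (median 5.65) and from 6.65 to 8.98 in brown fat (median 8.65), with the lowest brown fat value in mouse 82. It was the largest rise, 2.69 ± 0.19 (adjusted p = 1.41e-15), while its relative Gsto1 differed by -0.09 ± 0.08 (adjusted p = 0.342). The other probe sets of Gsto1 and Gstm7 differed by -0.56 and -0.57 between the means, so the sizes for these genes depend on the probe set. Gstp1, the main glutathione transferase of male mouse liver, differed by -1.60 ± 0.06 and Gstp3 by -2.39 ± 0.18. The theta class members Gstt1, Gstt3, Gstt2 and Gstt4 differed by -3.28, -2.49, -0.82 and -0.36. Gstt4 had medians below the lowest array median of 6.804 in both tissues.

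White fat was set beside these as a description. This used vehicle mice, with livers of the troglitazone study only and brown fat mouse 82 left out. Of 41 members, 37 had their highest mean in liver, 2 in brown fat and 2 in white fat. The highest tissue did not overlap the next in 29, 1 and 2 of these. Both white fat members stood clear of these livers and of brown fat. Sult1e1, the estrogen sulfotransferase, which inactivates estradiol, averaged 9.84 ± 1.05 (SD, n = 7) in white fat, 5.38 ± 0.43 (n = 9) in brown fat and 4.99 ± 0.32 (n = 10) in liver. Gstm2 averaged 12.15 ± 0.20 in white fat, 11.69 ± 0.13 in liver and 10.42 ± 0.14 in brown fat. In vehicle livers of the Elmiron study Gstm2 ran from 11.24 to 11.90, which overlapped its white fat range of 11.88 to 12.46.

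Between the 2 fats, several glutathione transferases differed by more than their spread. Gsta3 averaged 11.79 ± 0.22 in white fat and 7.70 ± 0.52 in brown fat, and Gstt1 averaged 11.49 ± 0.50 and 9.46 ± 0.23. Sult1a1 averaged 12.87 ± 0.36 in white and 11.10 ± 0.30 in brown fat. Higher in brown fat were Gsto2, at 8.64 ± 0.19 against 6.98 ± 0.23, and Gstp3, at 8.26 ± 0.16 against 6.74 ± 0.21. None of these ranges overlapped. Gsta4 did not separate the tissues, with means of 11.92 in liver, 11.84 in white fat and 11.90 in brown fat.

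The same genes marked the fat libraries that stood apart. In the 5 libraries with the highest hepatocyte means, from 12.47 down to 8.82, Ugt2b5 was 10.44, 10.38, 8.77, 8.26 and 7.04. It lay between 3.88 and 6.82 in the other 29 fat libraries. Sult2a8 was 10.54, 10.33, 8.94, 8.66 and 7.42 in the same 5, against 4.56 to 6.86 in the others. Ugt2b1 was 9.83, 10.52, 8.21, 8.01 and 6.88, against 4.01 to 6.23. The 5 fat libraries highest in hepatocyte markers were thus the 5 highest for each of these 3 genes, although all stayed below every liver library. Other members did not follow to the fifth library: in mouse 42 Ugt2b36 (7.21), Ugt2b35 (6.45), Gstm3 (8.29), Gsta2 (4.97) and Sult1d1 (5.03) lay within the range of the other 29 libraries. The part of liver cells in these values was not tested.

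The pair of brown-labelled libraries low in brown adipocyte markers stood apart in several members. Sult1e1 was 10.55 in vehicle mouse 82 and 9.17 in troglitazone mouse 95, against 4.45 to 6.51 in the other 18 brown fat libraries. Gsta3 was 12.04 and 11.41 in the same pair, against 6.79 to 8.58. Gsto2 was 6.65 and 7.05, against 8.38 to 8.98. For these 3 genes the pair lay nearer to white fat. Mouse 82 was also outside the white vehicle range in Gstm7 (10.90, against 7.84 to 8.26), Gstm5 (13.03, against 11.28 to 11.46), Gstm6 (9.30, against at most 7.91), Sult1c2 (8.03, against 5.06 to 5.80) and Sult1d1 (8.19, against 4.58 to 6.34). Its general epithelium markers averaged 8.85, against 6.10 to 6.55 in the other brown fat libraries, and their part was not tested. Without the pair, 37 of 41 members were called between vehicle brown fat and liver, and Sult1e1 was among them as higher in brown fat (0.38, adjusted p = 0.0354). The share of all genes called in that fit is not given here. With all libraries Sult1e1 stood at 0.91 ± 0.46 (adjusted p = 0.0685). Its medians in vehicle brown fat and liver both lay below the lowest array median of 6.804.

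**Figure D2:**
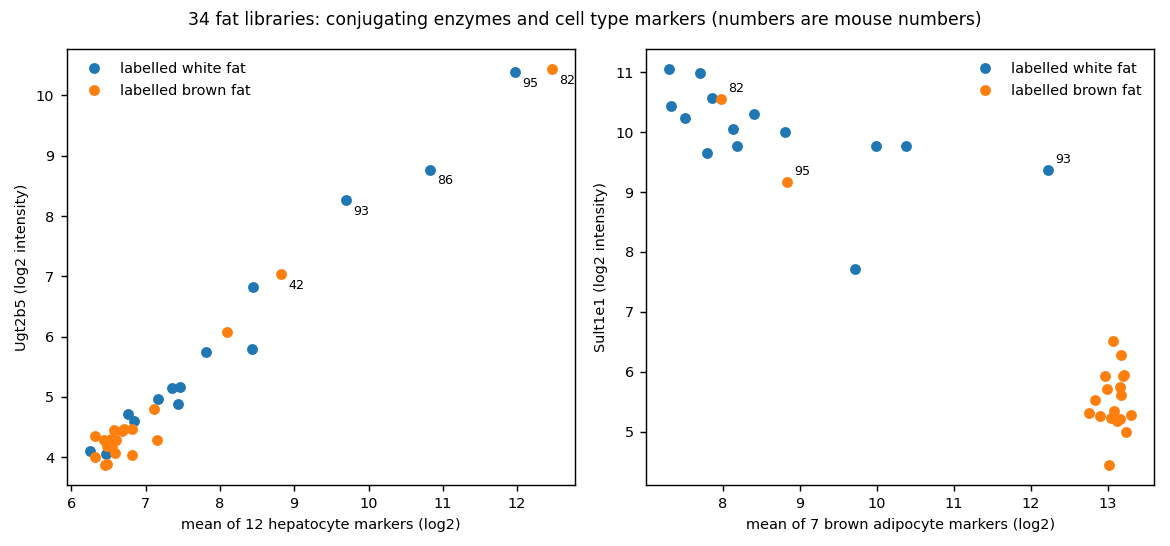
Log2 levels of Ugt2b5 against the mean of hepatocyte markers, and of Sult1e1 against the mean of brown adipocyte markers, in the 34 fat libraries, with 1 point per library. Ugt2b5 is above 7 only in the 5 libraries with hepatocyte means of 8.82 and over, and among brown fat libraries Sult1e1 is above 9 only in the pair with brown adipocyte means of 7.97 and 8.84.

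Fenretinide raised 1 member in white fat on day 15. Gstm2, a mu class glutathione transferase, was 11.88, 12.10 and 11.96 in the vehicle mice and 12.52, 12.69 and 12.76 in the treated mice. The groups did not overlap. The change was 0.68 ± 0.12 (SE; adjusted p = 0.00599), and it was called in every fit that left out 1 library, at 0.63 to 0.75. That is 1 of 41 members, or 2.44%, where 3.95% of all genes were called.

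Other members were high in only some of the treated libraries. Gstm7 was 8.26, 8.11 and 8.18 in vehicle mice and 11.72, 12.07 and 8.22 in treated mice 57, 58 and 59, and Gstm5 was 11.31, 11.42 and 11.44 against 13.62, 13.39 and 11.15. Sult1d1 was 4.58, 4.67 and 5.04 in vehicle mice and 8.32, 8.37 and 4.66 in treated mice, and Sult1c2 was 5.68, 5.48 and 5.26 against 8.90, 9.06 and 5.35. These 4 genes were thus high in mice 57 and 58 and at the vehicle level in mouse 59. Gsta2 had the opposite order, at 4.28, 4.83 and 4.34 in vehicle mice and 4.73, 5.17 and 10.71 in treated mice.

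None of these 5 was called with all libraries at equal weight. The changes were 2.49 ± 0.69 for Gstm7 (adjusted p = 0.0668), with adjusted p of 0.0895 for Sult1c2, 0.123 for Gstm5 and 0.163 for Sult1d1. Without mouse 59, 6 members were called, namely Gstm2, Gstm5 (2.12), Gstm6 (2.26), Gstm7 (3.71), Sult1c2 (3.51) and Sult1d1 (3.58). The other probe set of Gstm7 changed by 0.006, so that the 2 probe sets of this gene disagree. With array weights and all libraries, 7 were called, these 6 and Gstm1 (0.46), with Gstm7 at 3.20 (adjusted p = 0.000731) and Sult1c2 at 2.98 (adjusted p = 0.00135). With each array centred on its median, Gstm2 (0.52), Gstm7 (2.33) and Sult3a1 (-0.34) were called, and the median change of all genes moved to -0.196. The shares of all genes called in these other fits are not given here, so their counts are not a result about the members.

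Markers of general epithelium were higher in every treated library of day 15. They were highest in mouse 59, where Gstm7, Gstm5, Sult1c2 and Sult1d1 were at the vehicle level. Of 14 measured, 9 were called higher on day 15, with a median change of 2.64 over the list. Their mean level was 6.44 to 7.12 in the vehicle libraries and 9.21, 9.38 and 10.34 in treated mice 57, 58 and 59. Epididymis markers, 7 of 10 measured, averaged 5.94 to 6.11 in vehicle libraries and 6.15, 6.37 and 7.35 in the treated ones, with 0 called. The part of these cells in the changes of the Gst and Sult genes, Gstm2 included, was not tested.

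Over the 41 members, the median change on day 15 was -0.125, against -0.0423 over all genes. The groups did not overlap in 7 members, or 17.1%, against 27.9% of all genes. A change of less than 1.5-fold was estimated for 32 members, and the lowest was Ugt2b5 at -0.74. The median half-width of the 95% interval was 0.54, so that changes of about that size are within the error for most members.

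By day 29 no member was called in white fat, where 1.34% of all genes were, and 0 members had an unadjusted p below 0.05. The non-overlapping share was 1 of 41 members, against 8.75% of all genes. That member was Gstm7, at 7.89, 8.04, 8.12 and 7.84 in vehicle mice and 8.41, 8.41, 8.39 and 8.24 in treated mice, a change of 0.39 (adjusted p = 0.849). The largest change was that of Ugt2b1, 2.83-fold (adjusted p = 0.62), and Ugt2b5 stood at 1.14 ± 1.16 in log2 units (adjusted p = 0.745). Without the 3 white fat libraries highest in hepatocyte markers, these log2 changes were 0.30 and -0.05. The general epithelium markers averaged 6.89 to 7.23 in the day 29 libraries.

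**Figure D3:**
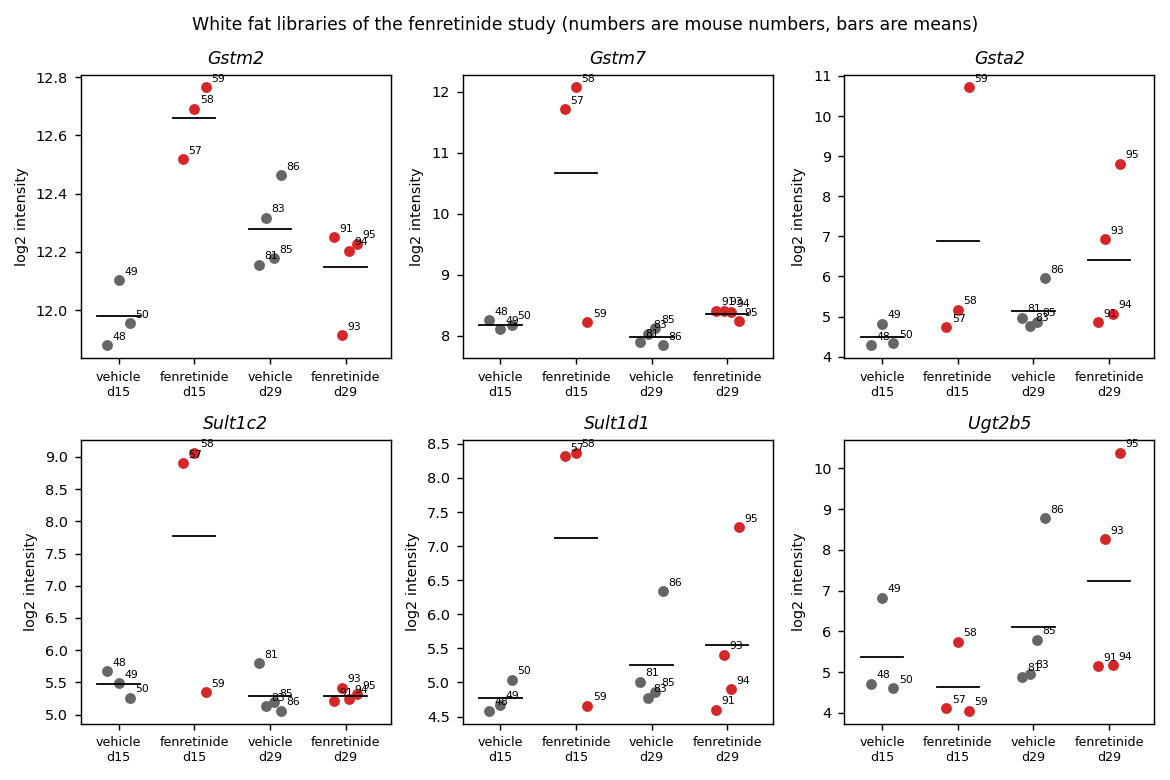
Log2 levels of Gstm2, Gstm7, Gsta2, Sult1c2, Sult1d1 and Ugt2b5 in white fat of single mice on days 15 and 29, with vehicle and fenretinide mice side by side and a bar at each mean. Gstm2 is higher in all 3 fenretinide mice of day 15, Gstm7, Sult1c2 and Sult1d1 are higher in mice 57 and 58 but not 59, and Ugt2b5 is highest in mice 86, 93 and 95 of day 29.

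The fenretinide effect on Gstm2 differed between the days. The change of day 29 minus that of day 15 was -0.81 ± 0.16 (adjusted p = 0.0245), and Gstm2 was the 1 member called of 41, with 1.33% of all genes called. The call was lost when vehicle mouse 48, 50 or 83 or treated mouse 58 was left out, at -0.76, -0.80, -0.80 and -0.79, and with each array centred on its median, at -0.66, where Sult3a1 was called instead (0.48, adjusted p = 0.0497). Without treated mouse 59, 6 members were called. Without the 3 hepatocyte-high libraries the difference was -0.67 (adjusted p = 0.0981). With array weights 4 were called, Gstm2, Gstm5, Gstm7 and Sult1c2, all lower on day 29. The shares of all genes called in these other fits are not given here, so their counts are not a result about the members. In the fit as planned, the largest differences were Sult1c2 at -2.30 and Ugt2b1 at 1.95, neither called.

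Troglitazone was followed by no called member in brown fat on either day. Over all genes 0.0605% were called on day 15 and 0.055% on day 29. The median half-width of the 95% interval was 0.60 on both days, wider than in liver. Members with an unadjusted p below 0.05 numbered 0 on day 15 and 1 on day 29, and all genes were not counted at that threshold. Sult2a8 had the lowest change on both days, -0.58 and -0.83, and is 1 of the genes high in vehicle mice 42 and 82. Without the pair low in brown adipocyte markers, its day 29 change was 0.07 (adjusted p = 0.962).

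Gstm2 was the 1 member whose brown fat groups did not overlap on day 15, against 3.25% of all genes. It ran from 10.37 to 10.60 in vehicle mice and from 10.06 to 10.30 in troglitazone mice, a change of -0.27 (adjusted p = 1), or adjusted p = 0.224 without the pair of libraries low in brown adipocyte markers. On day 29 no member was free of overlap, against 0.759% of all genes. Gstm7 changed by -0.81 on day 29 (adjusted p = 0.762) and by -0.14 without the pair. No member was called for a difference of the change between the days, with 0% of all genes called.

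In liver, theta class Gstt3 had the lowest p of the members with troglitazone on both days, without being called. On day 15 it was 9.86, 9.82, 9.67, 9.55 and 9.88 in vehicle mice and 10.21, 10.16, 10.08, 10.47 and 10.41 in treated mice. On day 29 it was 9.96, 10.19, 9.89, 9.63 and 9.94 in vehicle mice and 10.57, 10.21, 10.32, 10.29 and 10.58 in treated mice. The groups did not overlap on either day, although on day 29 the gap was small. The changes were 0.51 ± 0.11 (adjusted p = 0.144) and 0.47 ± 0.11 (adjusted p = 0.107). With array weights the day 15 change was 0.52 and was called (adjusted p = 0.0253).

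No other liver member was called with troglitazone either, and calls were rare over all genes, at 0.022% on day 15 and 0.115% on day 29. Members with an unadjusted p below 0.05 numbered 9 and 5. The share of all genes at that threshold was not counted, so these numbers are not a result about the members. The groups did not overlap in 2 members on day 15 and 1 on day 29, against 2.09% and 1.07% of all genes. Gstt2 changed by 0.46 on day 29 (adjusted p = 0.181), and Gsto2 by -0.47 on day 15 (adjusted p = 0.543). All 41 members changed by less than 1.5-fold on both days, and the median half-width of the interval was 0.22. The largest was Ugt2b37 on day 15, at -0.56, and Ugt2b38 on day 29, at 0.49. For the difference between the days, 0 members and 0% of all genes were called.

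**Figure D4:**
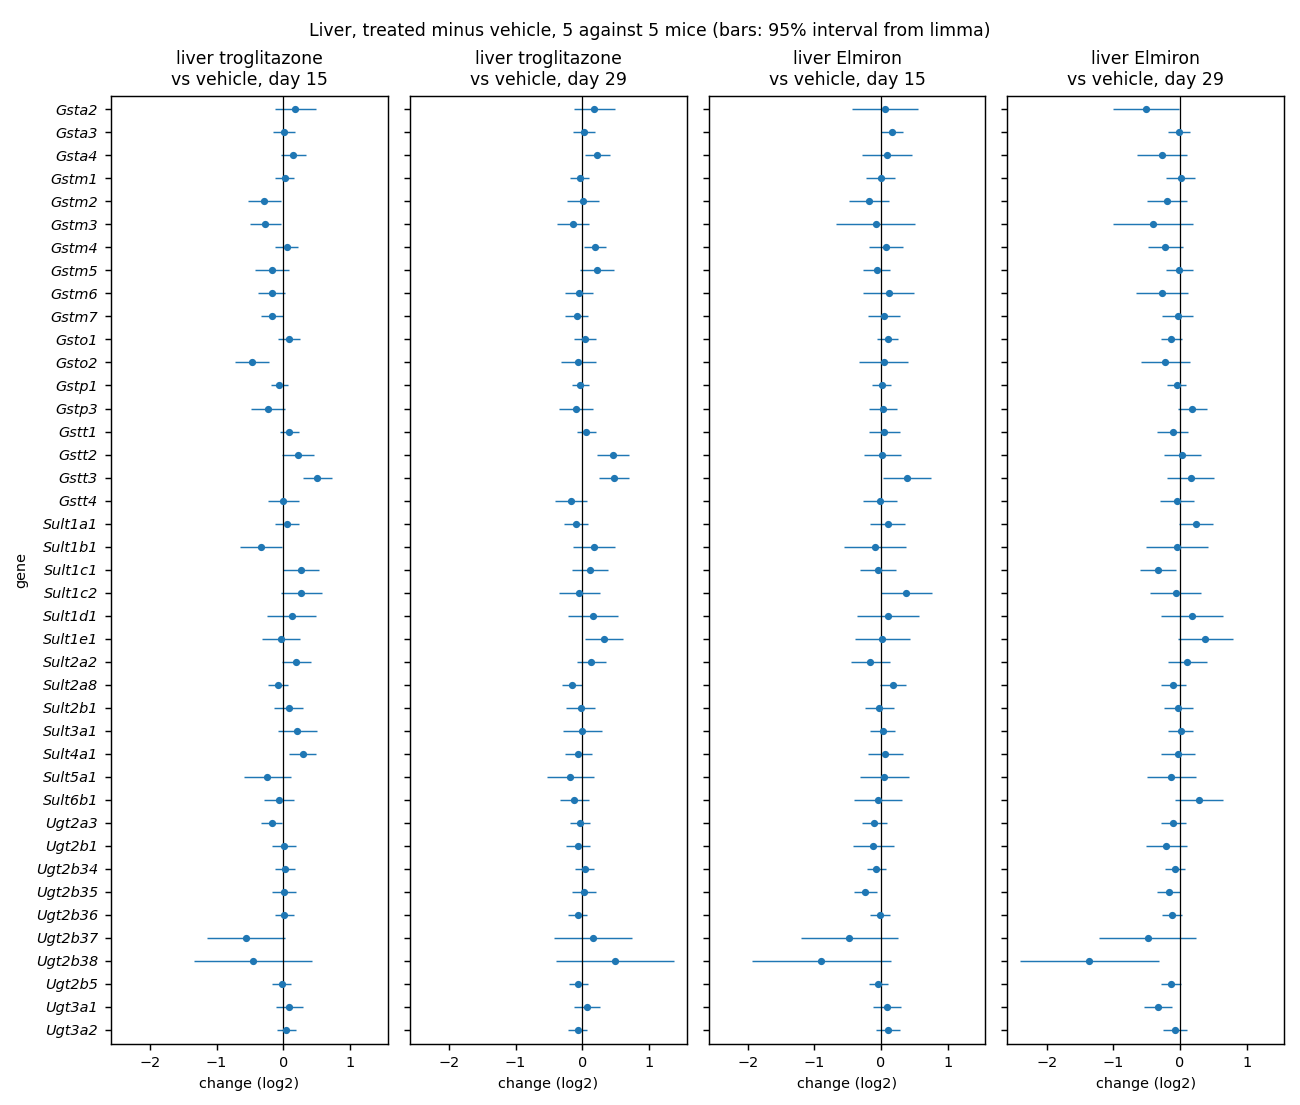
Change of the 41 members in liver, as log2 of treated over vehicle mice with its 95% interval, for troglitazone and Elmiron on days 15 and 29. Most points lie near 0. Gstt3 is above 0 with troglitazone on both days and is the highest member with Elmiron on day 15. Ugt2b38 is the lowest with Elmiron.

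The troglitazone effect was set against itself in the 2 tissues. No member was called for a difference between brown fat and liver on day 15 or day 29, with 0.022% and 0.0165% of all genes called. Closest to a call was Gstt2 on day 29, whose change in brown fat minus that in liver was -0.72 (adjusted p = 0.259). It was called without the pair of libraries low in brown adipocyte markers (-0.78, adjusted p = 0.0325) and without troglitazone mouse 95 alone (-0.85, adjusted p = 0.0349).

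With Elmiron, no member was called in liver, where 0% of all genes were called on day 15 and 0.0055% on day 29. Members with an unadjusted p below 0.05 numbered 3 and 4, again without a count over all genes. The groups did not overlap in 1 member on each day, against 1.06% and 1.43% of all genes. On day 15 that was Gsta3, at 0.17 ± 0.08 (adjusted p = 0.902). On day 29 it was Ugt3a1, from 11.28 to 11.47 in vehicle mice and from 10.75 to 11.23 in treated mice, a change of -0.33 ± 0.10 (adjusted p = 0.497).

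The largest Elmiron change was that of Ugt2b38. On day 29 it was 9.76, 10.19, 10.88, 10.78 and 11.16 in vehicle mice and 7.35, 8.46, 10.04, 11.04 and 9.08 in treated mice. The groups overlapped, and the treated values were spread over more than 3 units. The change was -1.36 ± 0.50 (adjusted p = 0.53), or -0.90 (adjusted p = 0.626) without treated mouse 91. On day 15 it was -0.90 ± 0.50 (adjusted p = 0.943). The highest Elmiron change of day 15 was that of Gstt3, at 0.39, and it was not called.

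Mouse 91 was the lowest of the 5 treated livers of day 29 in 26 of 41 members, or 63.4%, against 26.5% of all genes. It had 10.84 for Gstm3, 10.17 for Gsta2, 10.74 for Gsta4 and 12.66 for Ugt2b1. Gsta2 changed by -0.51 with this mouse and by -0.19 without it. No member was called for a different Elmiron effect on the 2 days, with 0% of all genes called.

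Troglitazone and Elmiron were compared in liver by the difference of their changes, each against its own vehicle. Dose and study differ with the compound, so that compound cannot be told apart from them. No member was called on either day, with 0.0055% and 0.0934% of all genes called. An unadjusted p below 0.05 was seen in 3 and 8 members, without a count over all genes. On day 29 the change with troglitazone was above that with Elmiron by 1.85 for Ugt2b38 (95% interval 0.44 to 3.27, adjusted p = 0.307), or 1.39 without Elmiron mouse 91. Ugt3a1 differed by 0.40 (0.12 to 0.68, adjusted p = 0.273). For Gstt3 the difference was 0.12 on day 15 (-0.30 to 0.54) and 0.31 on day 29 (-0.11 to 0.74).

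Few genes that regulate or feed these enzymes were called. Gclc, the catalytic subunit of the first enzyme of glutathione synthesis, rose in white fat on day 15 by 0.45 ± 0.10 (adjusted p = 0.0269), as 1 of 9 measured genes of glutathione synthesis and recycling. Rxra, the partner of many nuclear receptors, fell there by 0.40 (adjusted p = 0.038), as 1 of 16 regulators of conjugating enzymes, and Maff, a partner of NRF2, rose in white fat on day 29 by 1.42 ± 0.23 (adjusted p = 0.0159). Acot1, a PPARα target, rose in white fat on day 15 by 2.49 ± 0.32 (adjusted p = 0.00069), as 1 of 11 index targets of nuclear receptors and NRF2. In liver Cyp2b10, the usual index gene of CAR, rose with troglitazone by 2.67 ± 0.25 on day 15 (adjusted p = 6.06e-06) and by 1.98 on day 29 (adjusted p = 0.000605), beside 0 called transferases. With Elmiron it stood at 0.27 on day 15 (adjusted p = 0.998) and 0.64 on day 29 (adjusted p = 0.647). Cyp4a14, a PPARα target, stood at 2.40 (adjusted p = 0.309) and 1.98 (adjusted p = 0.277) in liver with troglitazone on days 15 and 29. In the 8 comparisons of treated with vehicle mice, 0 genes were called among 8 glutathione transferases outside the rule, 6 genes of UDP-glucuronic acid supply, 11 of sulfate activation and removal and 9 exporters of conjugates. Between vehicle brown fat and liver, 5 of the 6 supply genes were lower in brown fat and 0 higher, while 4 of 9 exporters were lower and 4 higher, where 44.5% of all genes were lower and 31.6% higher.

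Among livers of the same group, some members varied far more than others. The SD within the 8 liver groups was 0.85 for Ugt2b38, at the 99.9th percentile of all genes, and 0.57 for Ugt2b37, at the 99.5th, from the same cluster on chromosome 5. Next were Gstm3 (0.39), Sult1d1 (0.36) and Gsta2 (0.35). In Gstm3 and Gsta2, Elmiron mouse 91 of day 29 differed from the mean of its group mates by -1.95 and -1.60, so these SDs rest in good part on 1 liver. The median SD was 0.191 over the members and 0.186 over all genes. Ugt2b38 ran from 7.35 to 11.85 over 40 livers and Ugt2b37 from 5.69 to 8.27. By contrast, Sult2a8 ran only from 13.42 to 14.09.

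Ugt2b37 and Ugt2b38 were high and low in the same mice. Their deviations from the group means correlated at r = 0.912 and rho = 0.909 over 40 livers (permutation within groups, both p = 1e-05, the smallest that 100000 permutations can give). This was 1 pair, chosen after its values were seen. Within the troglitazone study r was 0.941 and rho 0.931, and within the Elmiron study r was 0.893 and rho 0.887 (n = 20 each, permutation p = 1e-05). Without the 2 livers farthest from the median r was 0.889. The genes are close relatives, as the shared 62 bases before their starts show, and whether their probe sets read each other's transcripts was not tested. Genes outside these families also followed Ugt2b38 over the 40 livers, among them Snx3 (r = 0.832), Ahsa1 (0.819) and Cct3 (0.800). The member Sult1a1 ran opposite to it (-0.766). A high r with Ugt2b38 was thus not particular to Ugt2b37.

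**Figure D5:**
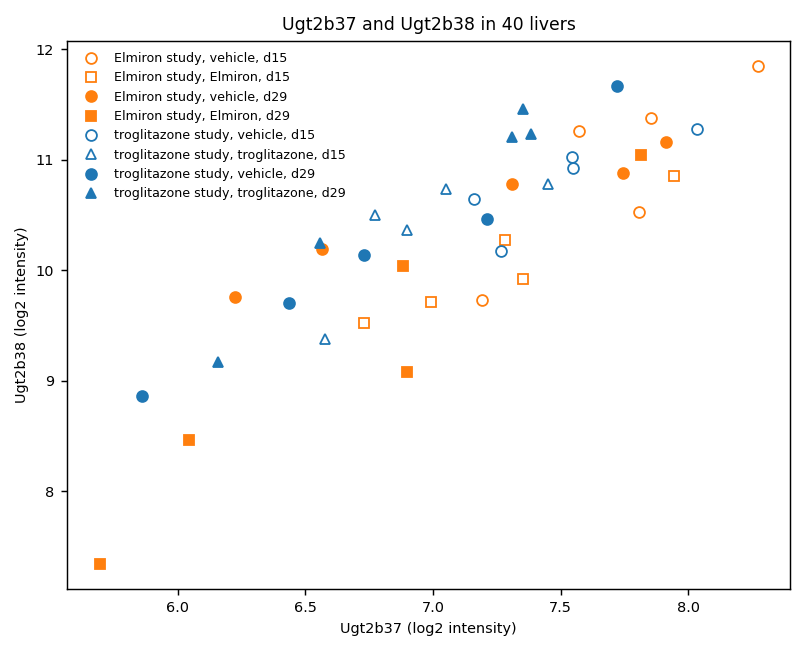
Log2 level of Ugt2b38 against that of Ugt2b37 in 40 livers, with colour for the study and the shape and fill for the group and day. Both genes are lowest in Elmiron mouse 91 of day 29, at 7.35 and 5.69, and livers high in 1 gene are high in the other within most groups.

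The genes most like 3 members over the 16 group means were liver genes. For Ugt2b5 these were Plg, Serpinc1 and Fgb, with r from 0.9995 to 0.9997, which encode plasminogen, antithrombin and a fibrinogen chain. For Sult2a8 they were Fgb, Hpx and Plg (0.9995 to 0.9996), and for Gsta2 they were Ephx1, Cyp7b1 and Aass (0.9954 to 0.9961). These r describe 16 group means that share tissues and studies. The 3 members were those with the largest called change of each family, which was the difference between brown fat and liver. A likeness to liver genes was thus largely fixed by that choice. For Sult1e1 the most alike were Anxa9, Shisa5 and Chrdl1, and for Gsto2 they were Ptdss2, Rab12 and Dld, both members chosen after their values were seen.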

How the data were processed

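The deposited values are linear intensity, 1 per probe set and array, made by the authors with RMA, per the submitters' processing notes. Which version, chip definition and arrays went into it is not given in the sources used here. No detection calls were used. Trizol RNA was hybridised to Affymetrix mouse arrays, per the labels. Intensity ran from 7.44 to 39426. The array medians were 6.804 to 6.939 on the log2 scale, and arrays of a group correlated at 0.9054 to 0.9965. Array number, not depth, limits the precision. By the labels' mouse numbers, replicates are separate animals.

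Each of 18193 genes was read by its probe set with 1 symbol and the highest mean. The platform annotation named the probe sets, and all 41 members matched RefSeq by Entrez number. Probe sets of some members carry codes for probes that can read several transcripts. For Gstm1, Gstm3, Sult6b1 and Ugt2b34 these can be of other genes, so paralogs are uncertain there. For Gsta2, Gstm6, Gsto2, Gstp1 and Sult1a1 the code is for transcripts of 1 gene, and reading of paralogs was not tested. Of the members, 13 lie in the dimmer 50% of genes.

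log2 values were fitted with limma 3.58.1 in R 4.3.3 (lmFit, eBayes), with 4 groups per tissue and study or 8 groups (40 arrays) between tissues or compounds, and adjusted by Benjamini-Hochberg over all genes, with no fold threshold. Tables were made in Python 3.11.15. Data were simulated with 200 genes changed and noise independent between genes and arrays. A 2-fold change was recovered in 76% of genes in the day 15 white fat comparison and in 98% in the day 15 liver troglitazone comparison. In the real day 15 liver troglitazone comparison only 4 genes were called. The cutoff was thus stricter there than in the simulation, and 98% does not carry over to the uncalled members.

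Named were all called members, a fixed set of members, the 5 largest each way between tissues and called genes of fixed lists. Others were chosen after their values were seen. The members and lists were chosen with earlier results of these data known. The other settings were the dim-gene filter, quantile normalization, median centring, probe set averages and array weights. Separate fits, the animal as a block, and each array left out in turn were run as well. Those without libraries that stood apart were added after seeing the data.

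By the labels, same-numbered brown fat and liver arrays come from 1 mouse. Over 15 mice with both, deviations from the group means correlated from -0.135 to 0.151, over 0.1 in 1 mouse. No batch or scan date is in the labels.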

Additional observations from a re-analysis of the deposited data

Results flagged for a closer look

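In 10 of 50 sets of a member and a group of 4 or 5 libraries, a single library lay far from the rest by Dixon's test, which chance gives in about 1 of 20. In brown fat these were Sult1e1 and Gsta3 in vehicle mouse 82 (10.55 and 12.04) and in troglitazone mouse 95 (9.17 and 11.41) of day 29, and Ugt2b1 in vehicle mouse 42 of day 15 (6.88) and vehicle mouse 82 of day 29 (9.83). In white fat of day 29 they were Gstm2 in fenretinide mouse 93 (11.91), Gstm7 in fenretinide mouse 95 (8.24) and Sult1d1 in vehicle mouse 86 (6.34). In liver it was Gsta2 in Elmiron mouse 91 of day 29 (10.17). The members and groups tested were chosen after the values were seen, and several of the sets found share a library. The 10 of 50 can thus not be set against the rate of 1 of 20.

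The fenretinide effect on Gstm2 in white fat differed between day 29 and day 15 by -0.81 in the test of the difference itself (limma, adjusted p = 0.0245).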

How the results depend on the processing

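Under the settings run, counts of called members stayed within 1.5 times of those reported, except as follows. For fenretinide in white fat on day 15, 1 member was called, against 3 with median centring, 7 with array weights and 1 to 6 when single libraries were left out. For its difference between days, 1 was called, against 4 with array weights, 0 without the 3 libraries highest in hepatocyte markers and 0 to 6 when single libraries were left out. For troglitazone in liver on day 15, array weights called 1 where 0 had been called. For troglitazone in brown fat against liver on day 29, 1 was called without the 2 libraries low in brown adipocyte markers and 0 to 1 when single libraries were left out. The cause was not tested, and the shares of all genes called in these fits are not given here. No called member changed sign in the fits compared. Uncalled ones did: of 41, 12 without the 3 hepatocyte-high libraries (fenretinide, white fat, day 29; Ugt2b5 from 1.14 to -0.05), 20 without the 2 brown-labelled libraries (troglitazone, brown fat, day 29) and 9 without mouse 91 (Elmiron, day 29). With the animal as a replicate block for the paired tissues (consensus correlation -0.0448), vehicle brown fat against liver kept 36 calls, all 36 shared, and both troglitazone tissue differences kept 0. Signals of dim members are near background and limit how small a change can be seen.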
